A study of Glycine max with 8 samples.

Results

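GIGANTEA is a large plant protein of the circadian clock and of day-length sensing, and soybean (Glycine max) carries it in several copies. The 4 loci described here were chosen by their IDs as the GIGANTEA loci of soybean: Glyma.10G221500, which is the maturity gene E2 (also called GIa), Glyma.20G170000, Glyma.09G196500 and Glyma.16G163200. The 8 deposited files list 47268 loci between them, among which are 3 of the 4; Glyma.09G196500 is in none. The files give IDs without names. The reference gene table for assembly Glycine_max_v4.0 holds a gene E2 with the synonym GmGIa on chromosome 10 and a gene GIGANTEA with the synonym GmGIb on chromosome 20, but it carries no ID of the files' kind, so the names rest on the IDs by which the loci were chosen.

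In Arabidopsis, GIGANTEA transcripts cycle over the day with an evening peak. The protein steadies the blue-light receptor ZEITLUPE and works with its relative FKF1 to remove repressors of CONSTANS, a promoter of flowering. It also has a known link to salt: Arabidopsis GIGANTEA binds the protein kinase SOS2, and its loss under salt frees SOS2 to activate the sodium exporter SOS1. In soybean, E2 delays flowering under long days, and plants with a loss-of-function e2 allele flower and mature earlier.

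Transcripts were measured by RNA-seq in whole seedlings, 2 weeks old, grown hydroponically under long days, with root and leaf RNA mixed in equal parts. The 4 groups of 2 libraries each were the line WEI6823 with wild-type GmSIN1 (WT) after mock treatment, the same line after 6 h in 150 mM NaCl, and seedlings over-expressing GmSIN1 (OE), a NAC transcription factor gene, after the same mock and NaCl treatments. The labels do not give the promoter of the transgene, the number of transgenic lines, whether plants were pooled, or the hour of harvest. Totals were 5980170 to 7199775 expected counts per library. Levels are given as CPM, the counts of a locus relative to the total of its library, and one value averages over both organs, so fewer expressing cells and less RNA per cell cannot be told apart. OE NaCl library 1 stood apart from the other 3 OE libraries at every GIGANTEA locus with reads. Fitted changes that rest on it are therefore given with and without it. The correlations between loci and the medians of neighbouring loci are given only with it. The total of OE NaCl library 1, 6702767 counts, lay within the range of the other libraries. Organ markers could not be checked, since the files pair no locus with a name.

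E2/GIa, the copy known as a maturity gene, was close to constant in WT seedlings. Its level was 64.7 and 57.6 CPM in WT mock libraries 1 and 2 and 58.8 and 60.7 CPM in WT NaCl libraries 1 and 2. In OE mock it was 63.5 and 80.7 CPM, so library 1 lay inside the WT range and library 2 above it. In OE NaCl it was 15.3 CPM in library 1 and 113 CPM in library 2, the lowest and the highest of all 8 values.

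Glyma.20G170000 was as steady in WT, at 65.7 and 65.9 CPM in mock and 63.9 and 67.1 CPM in NaCl. Both OE mock libraries lay above every WT library, at 137 and 132 CPM. OE NaCl library 2 was higher still at 173 CPM, and OE NaCl library 1 was at 18.6 CPM, below every WT library.

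Among the 3 listed copies, Glyma.16G163200 was the least abundant in WT and the most abundant in 3 of 4 OE libraries. It was at 17.1 and 21.7 CPM in WT mock and at 21.7 and 21.6 CPM in WT NaCl. The OE mock libraries were nearly equal to each other at 169 and 170.2 CPM, 8.24 and 8.30 times the mean of the 4 WT libraries. OE NaCl library 2 was at 189 CPM, 9.20 times that mean, whereas OE NaCl library 1 was at 9.10 CPM, 0.444 times it.

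Glyma.09G196500 appeared in no file. The smallest expected count listed in any file is 0.01, and 19 of the 20 loci numbered nearest to it on chromosome 9 were listed. If the locus was in the annotation that was counted, 0 reads allow at most 3 counts, or 0.417 to 0.502 CPM depending on the library. The files do not show whether it was in that annotation. It therefore enters no test, and the 3 other loci all passed the abundance filter in the fit over 34023 loci.

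**Figure D1:**
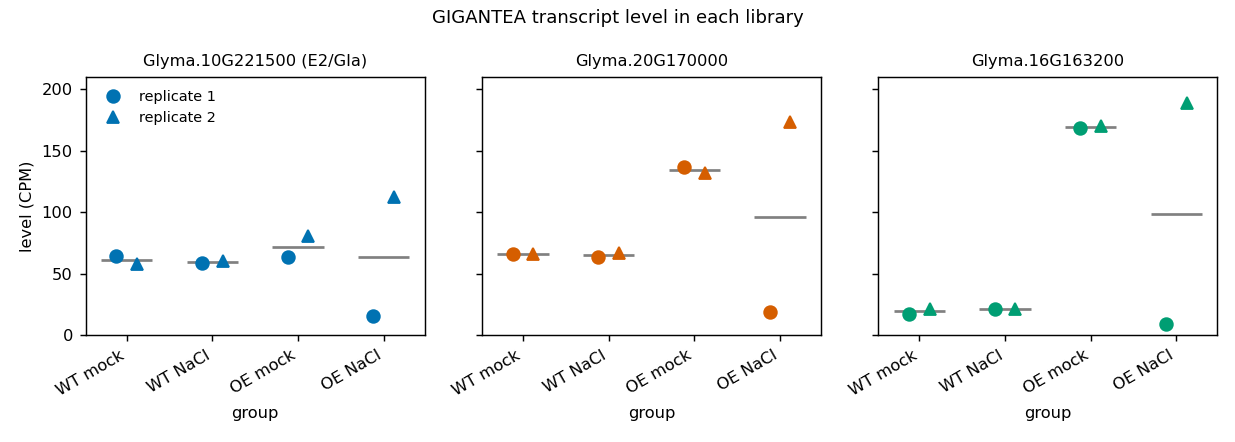
Transcript level in CPM (vertical axis) of the 3 GIGANTEA loci with reads, by group (horizontal axis); circles and triangles are replicates 1 and 2 and grey lines the mean of 2. Each WT pair lies close together, the OE mock pairs of Glyma.20G170000 and Glyma.16G163200 lie above WT, and the OE NaCl libraries fall on either side of WT at all 3 loci.

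Among themselves the WT libraries spread little: the coefficient of variation over 4 libraries was 5.13% for E2/GIa, 2.03% for Glyma.20G170000 and 11.2% for Glyma.16G163200. Over the 4 OE libraries it was 59.7%, 58.1% and 62.5%, and over the 3 without NaCl library 1 it was 29.1%, 15.1% and 6.26%. Summed over the 3 loci, the GIGANTEA level was 144 to 149 CPM in WT. In OE it was 370 and 383 CPM in mock, 43.0 CPM in NaCl library 1 and 474 CPM in NaCl library 2.

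Levels of different loci were compared per kilobase of coding length, 3534 bases for E2/GIa, 3537 for Glyma.20G170000 and 3285 for Glyma.16G163200. In WT mock the means were 17.3, 18.6 and 5.89 CPM per kb in that order, and in WT NaCl they were 16.9, 18.5 and 6.59. E2/GIa and Glyma.20G170000 overlapped in WT (16.3 to 18.3 against 18.1 to 18.98 CPM per kb over the 4 libraries), while Glyma.16G163200 lay below both at 5.19 to 6.60. The order in OE mock was Glyma.16G163200 at 51.6, Glyma.20G170000 at 38.1 and E2/GIa at 20.4 CPM per kb. Glyma.16G163200 was thus first instead of last, and Glyma.20G170000 stayed above E2/GIa. The pairs of libraries of the 3 loci did not overlap. OE NaCl library 2 kept that order at 57.4, 48.9 and 31.8 CPM per kb. OE NaCl library 1 had the WT order, with Glyma.20G170000 at 5.25, E2/GIa at 4.33 and Glyma.16G163200 at 2.77 CPM per kb.

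How reads were divided among copies bears on these levels. E2/GIa is listed as 3 gene models of equal coding length, 3534 bases, and in every library the 3 had identical expected counts (128.94 each in WT mock library 1), which is 33.3% of the locus each. The other 2 loci had 1 model each. The coding sequences of the E2/GIa models were thus not separated in these values, and the test of model usage, which returned an adjusted p of 1 for this locus in edgeR's diffSpliceDGE for both genotype and salt in WT, carries no information on its splicing. Over all 9386 loci with several models, 0.234% were called for genotype and 0.107% for salt in WT.

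Reads that matched both E2/GIa and Glyma.20G170000 were divided by the quantification. The count of either locus alone was whole, within 0.05, in 1 of 8 libraries, yet their sum was whole in 8 of 8, for example 779.99 in WT mock library 1 and 1847 in OE NaCl library 2. Counts of Glyma.16G163200 were whole in 8 of 8. The summed level of the pair and the level of Glyma.16G163200 thus rest on whole reads, while the division between E2/GIa and Glyma.20G170000 is partly an estimate. The pair was at 123 to 130 CPM in WT, at 201 and 213 CPM in OE mock, and at 33.9 and 286 CPM in OE NaCl libraries 1 and 2.

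The first comparison asked whether 6 h of NaCl changed GIGANTEA transcripts in WT seedlings. None of the 3 loci passed, and none of all loci did: 0% of 34023 were called in edgeR's quasi-likelihood test over all 8 libraries, 111 of them having an unadjusted p under 0.05. That fit shares 1 spread between genotypes, and the OE libraries varied far more than the WT libraries. Its 95% intervals are correspondingly wide, from -2.46 to 2.78 on the log2 scale for Glyma.16G163200. When the 4 WT libraries were fitted alone, the log2 fold change was -0.03 for E2/GIa (95% interval -0.19 to 0.13), 0.00 for Glyma.20G170000 (-0.0036, interval -0.15 to 0.15) and 0.16 for Glyma.16G163200 (-0.13 to 0.44). In that fit 0.0484% of 30986 loci were called, and 0 of the 3 GIGANTEA loci (lowest adjusted p 0.912). These intervals reach at most 0.44 on the log2 scale and cover the spread between these 4 libraries.

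Salt in OE seedlings gave no call either, with 0% of loci called, and 507 of 34023 at an unadjusted p under 0.05. DESeq2 and limma-voom also called 0 loci for salt in either genotype. The fitted log2 fold changes were -0.19 ± 0.79 for E2/GIa, -0.49 ± 0.85 for Glyma.20G170000 and -0.77 ± 1.07 for Glyma.16G163200 (SE) in edgeR. In limma-voom they were -0.85, -1.31 and -2.10. These averages hide opposite values. Between the libraries numbered 2, all 3 loci were somewhat higher in NaCl, with ratios of 1.39 (95% counting interval 1.25 to 1.56), 1.31 (1.20 to 1.43) and 1.11 (1.02 to 1.20) in the same order. Between the libraries numbered 1, all 3 were far lower in NaCl: E2/GIa by a ratio of 4.15 (3.31 to 5.17), Glyma.20G170000 by 7.39 (6.14 to 9.02) and Glyma.16G163200 by 18.6 (14.3 to 24.4). Each of these pairs has 1 library per treatment and no replicate check, and the intervals cover counting error alone.

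Set against all loci at 10 CPM or more, the GIGANTEA values between the libraries numbered 1 lay in the lower tail. Of 18414 such loci, 32 (0.174%) were at least as much lower as Glyma.16G163200, 88 (0.478%) as Glyma.20G170000 and 208 (1.13%) as E2/GIa, on the log2(CPM + 1) scale. The median locus differed by 0.01 on that scale. Between the libraries numbered 2 the same loci lay higher, with 29.3%, 7.09% and 3.82% of 17431 loci at least as much higher in that order.

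**Figure D2:**
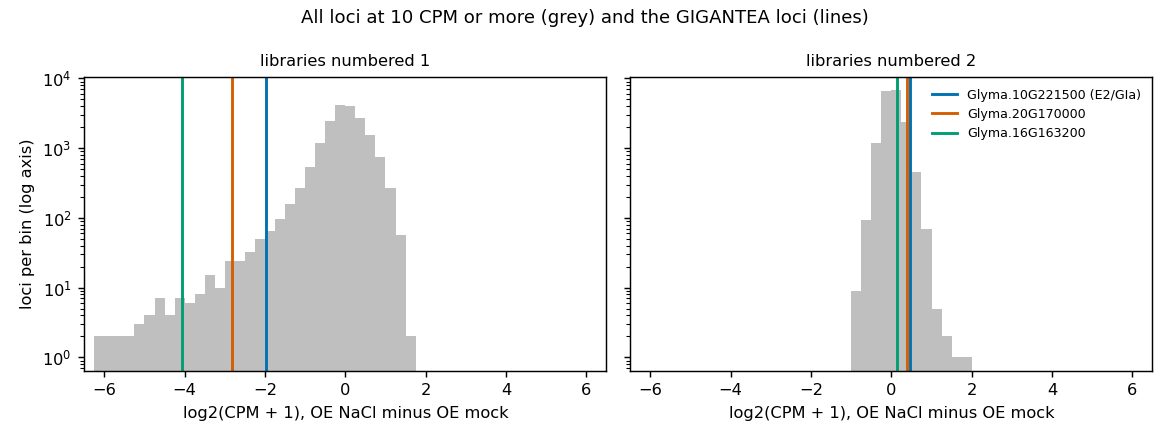
Number of loci (vertical log axis) by their difference in log2(CPM + 1) between OE NaCl and OE mock (horizontal axis), for libraries numbered 1 (left) and 2 (right); grey bars are all loci at 10 CPM or more and coloured lines the 3 GIGANTEA loci. The lines stand at -1.98, -2.82 and -4.07 on the left and at 0.47, 0.38 and 0.15 on the right.

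Leaving out 1 OE NaCl library decides the sign of the salt difference in OE. Without library 1 the log2 fold changes were 0.64, 0.37 and 0.16 for E2/GIa, Glyma.20G170000 and Glyma.16G163200, with no call (adjusted p 0.895 for each). Without library 2 they were -2.39, -3.01 and -4.37, all 3 called (edgeR adjusted p 0.0352, 0.00665 and 0.00665), where 0.62% of 35161 loci were. In either refit a single library stands for OE NaCl and carries no spread of its own and borrows that of the other groups.

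Whether over-expression of GmSIN1 went with altered GIGANTEA levels was asked first in mock-treated seedlings. There the OE pairs of Glyma.16G163200 and Glyma.20G170000 were tight, while that of E2/GIa was wider, at 63.5 and 80.7 CPM. Both OE libraries lay above both WT libraries for Glyma.16G163200 and Glyma.20G170000, and the groups overlapped for E2/GIa. Over all 8 libraries, edgeR gave a fold change of 9.32 (95% interval 1.35 to 64.1) for Glyma.16G163200 with an adjusted p of 0.124, of 2.18 (0.528 to 8.98) for Glyma.20G170000 with an adjusted p of 0.408, and of 1.27 (0.345 to 4.65) for E2/GIa with an adjusted p of 0.798. None of the 3 was called, against 8.93% of all 34023 loci.

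In edgeR, the missing calls of Glyma.16G163200 and Glyma.20G170000 depended on the OE NaCl libraries. These are not part of the comparison but enter the shared spread. As a biological coefficient of variation, the dispersion in the fit was 70.9% for Glyma.16G163200, 58.0% for Glyma.20G170000 and 54.3% for E2/GIa. In common over all loci it was 32.9%. With only the 4 mock libraries in the fit, Glyma.16G163200 (log2 fold change 3.24 ± 0.22 SE, adjusted p 0.0135) and Glyma.20G170000 (1.14 ± 0.16 SE, adjusted p 0.0273) were called as higher in OE and E2/GIa was not (0.36 ± 0.24 SE, adjusted p 0.346). That fit called 10.4% of 32002 loci. DESeq2 over all 8 libraries called Glyma.16G163200 alone of the 3 (adjusted p 0.00696), where it called 15.1% of all loci. Leaving out OE NaCl library 1 or library 2 gave the same pair of calls as the mock libraries alone, with 22.8% and 23.1% of all loci called.

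In NaCl-treated seedlings the OE libraries lay on both sides of WT at each locus. The fold changes of OE over WT were 4.86 (95% interval 0.758 to 31.2) for Glyma.16G163200, 1.55 (0.380 to 6.33) for Glyma.20G170000 and 1.13 (0.308 to 4.16) for E2/GIa, with edgeR adjusted p of 0.241, 0.669 and 0.907. In limma-voom the log2 values were 0.95, -0.18 and -0.50, so those of Glyma.20G170000 and E2/GIa had the opposite sign. No copy was called, against 7.89% of all loci. Without OE NaCl library 1 all 3 were called as higher in OE, with log2 fold changes of 3.22, 1.498 and 1.01 (edgeR adjusted p 0.00285, 0.00532 and 0.0367), beside 20.6% of all loci. Without OE NaCl library 2 all 3 were called as lower in OE, at -1.31, -1.88 and -2.02 (edgeR adjusted p 0.0250, 0.00488 and 0.0136), beside 9.83% of all loci. The direction in NaCl was thus set by which of the 2 libraries was kept.

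Averaged over both treatments, Glyma.16G163200 passed the test as higher in OE, with a log2 fold change of 2.75 ± 0.81 (SE) and an edgeR adjusted p of 0.0448, close to the threshold of 0.05. It was higher than every WT library in 3 of 4 OE libraries and lower than every WT library in 1 of 4. Glyma.20G170000 (0.88 ± 0.60 SE, adjusted p 0.305) and E2/GIa (0.26 ± 0.56 SE, adjusted p 0.749) did not pass. In this comparison 28.9% of all loci were called, so 1 of 3 is close to the background. The call of Glyma.16G163200 was lost when any 1 of the WT or OE mock libraries was left out, though its log2 fold change was 2.66 to 2.84. Each of those refits has 1 library in a group and called a smaller part of all loci than the 28.9%. The call was also lost with limma-voom (adjusted p 0.137), which called 8204 of 34023 loci and put E2/GIa at -0.093. Without OE NaCl library 1 all 3 loci were called as higher, with log2 fold changes of 3.22, 1.31 and 0.67 for Glyma.16G163200, Glyma.20G170000 and E2/GIa (42.2% of all loci called). Without library 2, Glyma.16G163200 was called as higher at 0.95, and Glyma.20G170000 and E2/GIa as lower at -0.38 and -0.84 (29.8% of all loci called).

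The interaction of genotype and treatment, which asks whether the salt difference was unequal between OE and WT, was not called at any locus (0% of 34023, with 232 at an unadjusted p under 0.05; DESeq2 and limma-voom also called 0). Its log2 values were -0.16 ± 1.11 for E2/GIa, -0.49 ± 1.20 for Glyma.20G170000 and -0.94 ± 1.53 for Glyma.16G163200 (SE), and -0.82, -1.30 and -2.27 in limma-voom. Without OE NaCl library 1 the edgeR values were 0.67, 0.38 and 0.0011 in the same order. Without OE NaCl library 2 they were -2.36, -3.01 and -4.53. In either refit a single library stands for OE NaCl and carries no spread of its own.

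**Figure D3:**
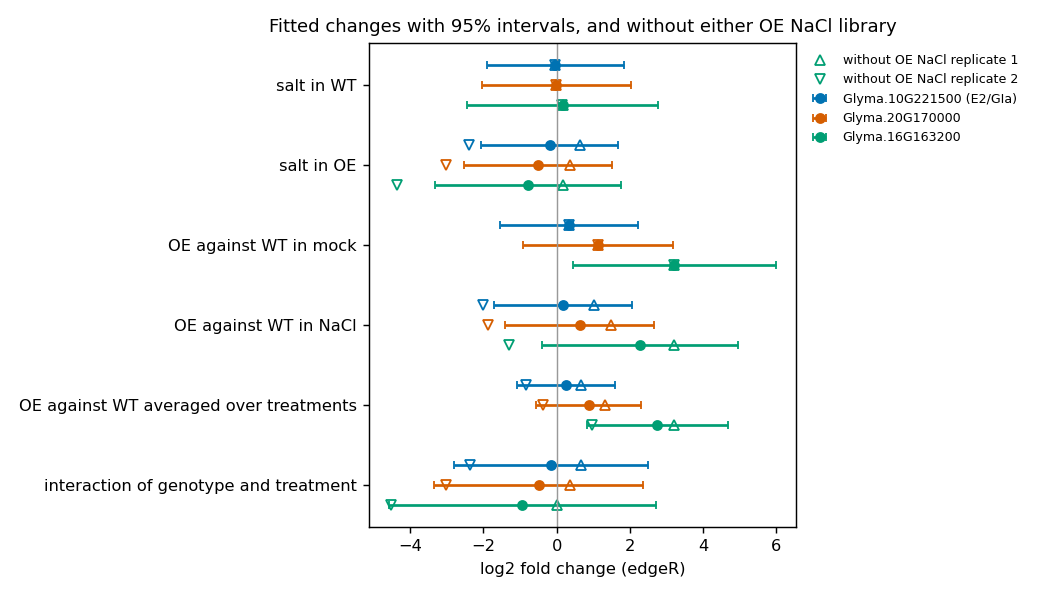
Log2 fold change (horizontal axis) of the 3 GIGANTEA loci in each comparison (vertical axis); filled circles and bars are the edgeR estimate over all 8 libraries with its 95% interval, and open triangles the estimate without OE NaCl library 1 (pointing up) or library 2 (pointing down). The triangles fall together for salt in WT and for genotype in mock and part widely in the comparisons that use OE NaCl.

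The copies did not keep their proportions between genotypes, a comparison in which library scaling cancels. In WT, E2/GIa made up 39.7% to 43.9% of the GIGANTEA counts per library, Glyma.20G170000 44.3% to 45.4% and Glyma.16G163200 11.6% to 15.01%. In OE mock libraries 1 and 2, Glyma.16G163200 held 45.7% (exact 95% interval 43.7 to 47.7) and 44.4% (42.5 to 46.3), and E2/GIa 17.2% and 21.1%. OE NaCl library 2 was similar, with 39.8% for Glyma.16G163200 and 23.7% for E2/GIa. OE NaCl library 1, despite its low total, also had a larger share of Glyma.16G163200 than any WT library, 21.2% with an interval of 16.6 to 26.4. That interval overlaps the 12.9 to 17.3 of WT NaCl library 1. The share of E2/GIa in OE NaCl library 1 was 35.6%.

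**Figure D4:**
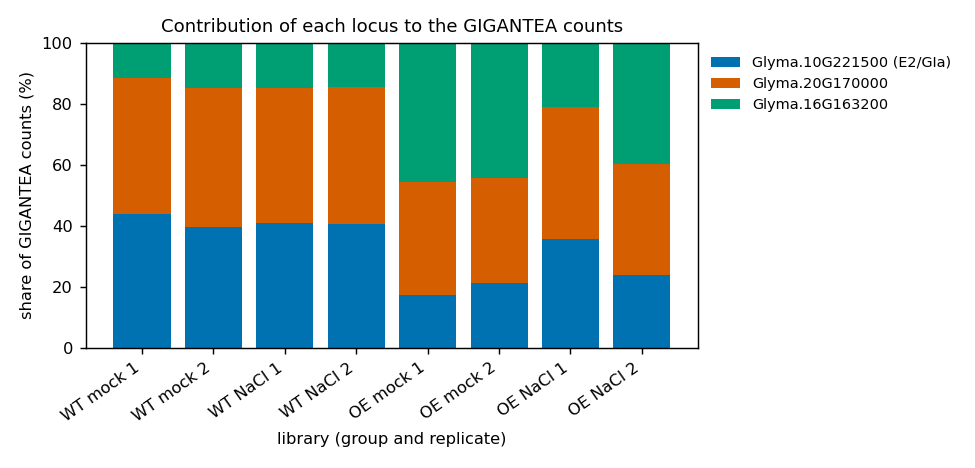
Share of each locus in the summed GIGANTEA counts (vertical axis, percent) in each of the 8 libraries (horizontal axis), coloured by locus. The share of Glyma.16G163200 is 11.6% to 15.01% in the WT libraries and 21.2% to 45.7% in the OE libraries.

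Ratios between copies within a library were shifted in each OE library, least in NaCl library 1. The ratio of Glyma.16G163200 to Glyma.20G170000 was 0.259 to 0.339 in WT. In OE it was 1.23 and 1.29 in mock, 0.490 in NaCl library 1 and 1.09 in NaCl library 2, all above WT, for a fold change of 3.09 between the geometric means. The ratio of Glyma.16G163200 to E2/GIa was 0.264 to 0.376 in WT and 0.595 to 2.66 in OE, a fold change of 4.55, or 6.25 without OE NaCl library 1. The ratio of Glyma.20G170000 to E2/GIa, whose reads are partly shared, was 1.02 to 1.14 in WT and 1.21 to 2.16 in OE, a fold change of 1.47. In OE NaCl library 1 this ratio of 1.21 had a counting interval of 0.920 to 1.58 that spans the WT values, so there the separation is within counting error. In the same library, Glyma.16G163200 over Glyma.20G170000 had an interval of 0.356 to 0.674, above the highest WT value of 0.339. Glyma.16G163200 over E2/GIa had an interval of 0.424 to 0.821, above the highest WT value of 0.376. Both intervals overlapped WT intervals, such as 0.281 to 0.408 in WT NaCl library 1 and 0.309 to 0.455 in WT mock library 2 in that order.

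Each of the 3 ratios was higher in 4 of 4 OE than in 4 of 4 WT libraries, with a two-sided exact permutation p of 0.0286 each and 0.0286 after adjustment over the 3 ratios. This is the smallest p that 4 against 4 libraries can give. The ratio of Glyma.16G163200 to E2/GIa is the product of the others, so its separation follows from theirs and adds no separate evidence. The ratios were taken after the values had been seen, and the test treats the OE libraries as independent, although the labels do not say that they came from separate plants. Leaving out any 1 library could not undo the complete separation of OE from WT ratios, and the smallest p possible is then 0.0571. Those refits therefore show only how far the fold changes moved. They ran from 2.80 to 3.86 for Glyma.16G163200 over Glyma.20G170000 and from 3.79 to 6.25 for Glyma.16G163200 over E2/GIa. For Glyma.20G170000 over E2/GIa they ran from 1.34 to 1.62.

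**Figure D5:**
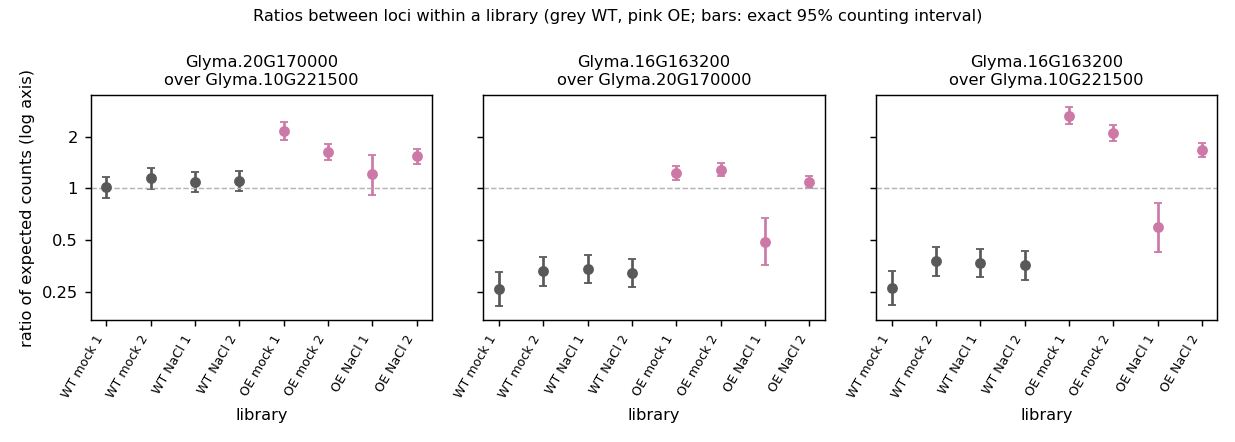
Ratio of expected counts between pairs of GIGANTEA loci (vertical log axis) in each library (horizontal axis), WT in grey and OE in pink, with exact 95% counting intervals as bars. The pink points lie above the grey points in all 3 panels, those of OE NaCl library 1 being the lowest of the 4.

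Across the 8 libraries the copies moved together to different degrees. Pearson's r of log2(CPM + 1) was 0.93 between E2/GIa and Glyma.20G170000, 0.90 between Glyma.20G170000 and Glyma.16G163200 and 0.69 between E2/GIa and Glyma.16G163200. These values are descriptions over 8 points that share genotype groups and OE NaCl library 1. Among 18478 other loci with a mean of at least 10 CPM, 267 (1.44%) had an r of at least 0.95 with Glyma.16G163200, 99 (0.536%) with Glyma.20G170000 and 59 (0.319%) with E2/GIa.

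The locus most like Glyma.16G163200 was Glyma.08G315600 on chromosome 8, with r of 0.9965. It was at 18.8 to 20.5 CPM in WT, at 66.8 and 69.2 CPM in OE mock, and at 14.1 and 67.0 CPM in OE NaCl libraries 1 and 2. The closest to Glyma.20G170000 was Glyma.07G013800 on chromosome 7 (r of 0.9906), at 30.7 to 36.4 CPM in WT, 71.2 and 56.1 CPM in OE mock and 11.5 and 74.8 CPM in OE NaCl. For E2/GIa it was Glyma.14G118100 on chromosome 14 (r of 0.9845), at 25.8 to 33.1 CPM in WT, 31.9 and 37.6 CPM in OE mock and 12.8 and 48.9 CPM in OE NaCl. All 3 were low in OE NaCl library 1, which follows from their choice by r over libraries that include it, and the files give none of them a name.

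Of the 20 loci numbered nearest to each, 16 to 20 were listed for the 3 loci with reads. The median difference of OE from WT, in mean log2(CPM + 1), was -0.10 around E2/GIa, 0.16 around Glyma.20G170000 and 0.03 around Glyma.16G163200. Only 10 of 20, 8 of 18 and 6 of 16 listed neighbours in that order had a mean of at least 10 CPM, and this scale shrinks the differences of weakly expressed loci. The medians were not tested.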

How the data were processed

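Per the submitters' processing notes, the authors used RSEM. The deposited files hold its expected counts and FPKM values for each gene model. Aligner, RSEM version, genome build and annotation were not given in the sources used here. A length column, per the file headers, holds a multiple of 3 for every model and so a coding length; reads from untranslated regions may be uncounted. Deposited FPKM values, 0.970 to 0.975 times CPM per kb here, entered no test. For each locus, the expected counts of its models were added, rounded for testing, and divided by the library total for CPM. Loci were tested with edgeR 4.0.16 in R 4.3.3 (filterByExpr, TMM, glmQLFit, glmQLFTest, 1 coefficient per group, all 8 libraries), with Benjamini-Hochberg adjustment over all 34023 loci and a threshold of 0.05; model usage with diffSpliceDGE; ratios with exact permutation tests. Alternatives were other scalings and filters, DESeq2 1.42.0, limma-voom (limma 3.58.1), a replicate block, only the 4 libraries compared, gene models as units, and each library left out. P-values measure the spread between these libraries, which may be technical. Counting intervals (exact, 95%) and the floor of 3 counts cover counting error only.

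The members, lists and tests were chosen with earlier results of these data known. The named loci were to be the 4 members and the 3 named loci most like each by Pearson's r; as the reference gene table (59048 genes) names no ID of the files' kind, the 1 most like locus is given by ID instead, and the planned lists of clock, photoperiod and organ marker genes and the promoter motifs were not used here. Scripts were tested on simulated counts.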

Additional observations from a re-analysis of the deposited data

How the results depend on the processing

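In this section, values are log2 fold changes unless counts are named. Other scalings and filters changed the call of no GIGANTEA locus. Of 34023 loci, DESeq2 called 5146 for OE against WT in mock and 4620 in NaCl, against 3038 and 2683 in edgeR. With gene models as units, 1192 and 1076 of 48983 models were called, and 6694 averaged over treatments. The 9847 called averaged in the fit reported are loci out of 34023, so these numbers have unlike units. The number of GIGANTEA loci called in mock, 0 in the fit reported, was 1 with DESeq2 and 2 with only the 4 libraries compared; averaged over treatments, it was 0 in place of 1 with limma-voom and with gene models as units, whose adjusted p for Glyma.16G163200 were 0.137 and 0.0912. Signs turned in limma-voom for Glyma.10G221500 in NaCl (-0.50) and averaged (-0.093) and for Glyma.20G170000 in NaCl (-0.18), and for Glyma.20G170000 under salt in WT with no filter (0.0058) and gene models as units (0.0026). The cause was not tested.

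With each library left out in turn, the number of GIGANTEA loci called changed in every comparison but salt in WT. In those same comparisons, but not for salt in WT, the number called over all loci changed as well. Each such fit leaves 1 library in a group, so only the fitted values are compared here. For salt in WT the values ran from -0.11 to 0.050 for Glyma.10G221500, -0.031 to 0.025 for Glyma.20G170000 and -0.0015 to 0.35 for Glyma.16G163200. For salt in OE they ran from -2.39 to 0.64, -3.01 to 0.37 and -4.37 to 0.16 in that order, for OE against WT in NaCl from -2.02 to 1.01, -1.88 to 1.498 and -1.31 to 3.22, and for the interaction from -2.36 to 0.67, -3.01 to 0.38 and -4.53 to 0.0011, the extremes coming from leaving out OE NaCl library 2 or 1. Averaged, they ran from -0.84 to 0.67 for Glyma.10G221500 and -0.38 to 1.31 for Glyma.20G170000. Fold changes of the ratios between copies could not fall below 1 with a library left out, since all OE ratios exceeded all WT ratios. Also, 3 against 4 libraries cannot go below an exact permutation p of 0.0571.

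The labels number the libraries 1 and 2 in each group without saying that a number marks a shared batch. Over 18479 loci, differences between libraries 1 and 2 correlated at 0.767 between OE mock and OE NaCl and at -0.0148 to 0.0218 between the other groups. With a replicate block, the same number of GIGANTEA loci was called in each comparison, and Glyma.10G221500 in NaCl turned sign (-0.13); 4671 loci of the whole set were called in mock and 4117 in NaCl. Counting error is widest where counts are fewest, as for Glyma.16G163200 in OE NaCl library 1, with 61 counts.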
